A study of Petromyzon marinus with 2 samples.

Results

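Genes for RNA-binding proteins and splicing factors were examined in the retina of the adult sea lamprey (Petromyzon marinus), a jawless vertebrate. The members were chosen by name. A gene was a member when its symbol began with ELAVL, RBFOX, CELF, NOVA, SRSF, HNRNP, MBNL, PTBP, KHDRBS, QKI, MSI, PUM or RBM followed by a digit, a letter or nothing, and when at least 100 cell barcodes held a UMI of it. A UMI (unique molecular identifier) is a tag on each captured transcript, by which copies made in amplification are told from separate molecules. Of the 24979 genes in the count tables, 6749 had a symbol, 18 carried one of these names and 17 were members. RBM47, with 18 UMIs in 18 barcodes, fell below the minimum, and the member nearest to it, RBM19, had UMIs in 860 barcodes.

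The members were CELF2, SRSF3, SRSF9, HNRNPH1, PUM3 and 12 RBM genes. No symbol in the tables began with ELAVL, RBFOX, NOVA, MBNL, PTBP, KHDRBS, QKI or MSI. Genes listed by number alone were not analysed here for any of the named families. Further genes of these families, CELF, SRSF, HNRNP, PUM and RBM included, may be among them. Retinal cells were dissociated from adult animals and sequenced as single cells in droplets, in 2 libraries, replicates 1 and 2, with no other condition. The animals were wild, neither their age nor the number per library is given, and the study says that at least 2 animals were used. Since the libraries may have mixed animals, the p-values do not measure the spread between animals. They rest on how far differences between classes of cells varied between these 2 libraries, after the overall difference between the libraries was taken out. Replicate 1 held 87882951 UMIs and replicate 2 held 117426390, of which 0.162% were from the members.

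RNA-binding proteins act on a transcript from the moment it is made. SR proteins, hnRNPs and CELF proteins bind short motifs in the precursor RNA and bias the choice of splice sites, core factors of the spliceosome carry out splicing itself, and other factors mark, export, degrade or mature RNA. Neurons of jawed vertebrates use cell-type-specific sets of such regulators, and families such as CELF are known for alternative splicing of synaptic and channel transcripts in brain.

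Barcodes were placed in classes by the UMIs of marker genes, with no use of any member. The photoreceptor gate held UMIs of at least 2 of RCVRN, CNGB1-1, AANAT and ARRB1.3. The bipolar gate had at least 2 UMIs each of CHTF18 and SLC17A6, and the horizontal gate at least 5 of BEGAIN with at least 1 of LHX1 or 2 of SALL3. The starburst gate had at least 5 UMIs of SLC5A7, the choline transporter. The SLC32A1 amacrine gate had at least 3 UMIs of SLC32A1, the vesicular GABA and glycine transporter, and at most 1 of SLC5A7. The GAD1 neuron gate had at least 10 UMIs of GAD1, none of SLC32A1, at most 1 of SLC5A7 and at most 4 of BEGAIN. The Muller glia gate had at least 10 UMIs of GLUL, the glutamine synthetase of glia. The 7 gates took 12854 of 28839 barcodes (44.6%), which held 68.1% of the UMIs. Their sizes were 63, 352, 467, 1660, 3651, 5855 and 806 barcodes in the order given, and the UMIs summed per gate and library ran from 103555 (photoreceptor, replicate 1) to 34869387 (GAD1 neuron, replicate 2).

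A gate is a selection of barcodes and not a proven cell type. CHAT, which makes acetylcholine, had UMIs in 100% of starburst barcodes and in 8.0% to 27.8% of those of the other gates. HES1, a second glial gene, had UMIs in 50.6% of Muller glia barcodes and at most 3.3% elsewhere. GAD1, by contrast, had UMIs in 47.0%, 47.2% and 49.2% of the Muller glia, bipolar and photoreceptor barcodes, none of which were chosen by it. SLC17A6 and SALL3 had UMIs in 60.3% and 49.2% of photoreceptor barcodes. Markers of pigment epithelium, endothelium and dividing cells had UMIs in at most 7.1% of the barcodes of any gate. The 2 libraries shared 83 barcode sequences, of which 78 were in a gate, and removing them changed no count of called members.

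CELF2, a CUG-binding splicing regulator of the CELF family, was the member that set one class apart from the others. Its level in the starburst gate was 1970 CPM (the gene's UMIs for each 1000000 UMIs summed in the same gate and library) in replicate 1 and 1592 in replicate 2, a mean of 1781 ± 267 (SD, n = 2). The next highest levels were those of the GAD1 neuron gate, at 434 and 414, and of the horizontal gate, at 442 and 312. Both starburst libraries lay above every library of every other gate.

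The other gates lay lower. CELF2 was at 231 and 225 CPM in the SLC32A1 amacrine gate, 225 and 181 in the Muller glia gate, 193 and 173 in the photoreceptor gate and 148 and 204 in the bipolar gate, given as replicate 1 and replicate 2. The last 3 of these overlapped one another, and the Muller glia value of replicate 1 reached that of the SLC32A1 amacrine gate. The horizontal and GAD1 neuron gates also overlapped.

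**Figure D1:**
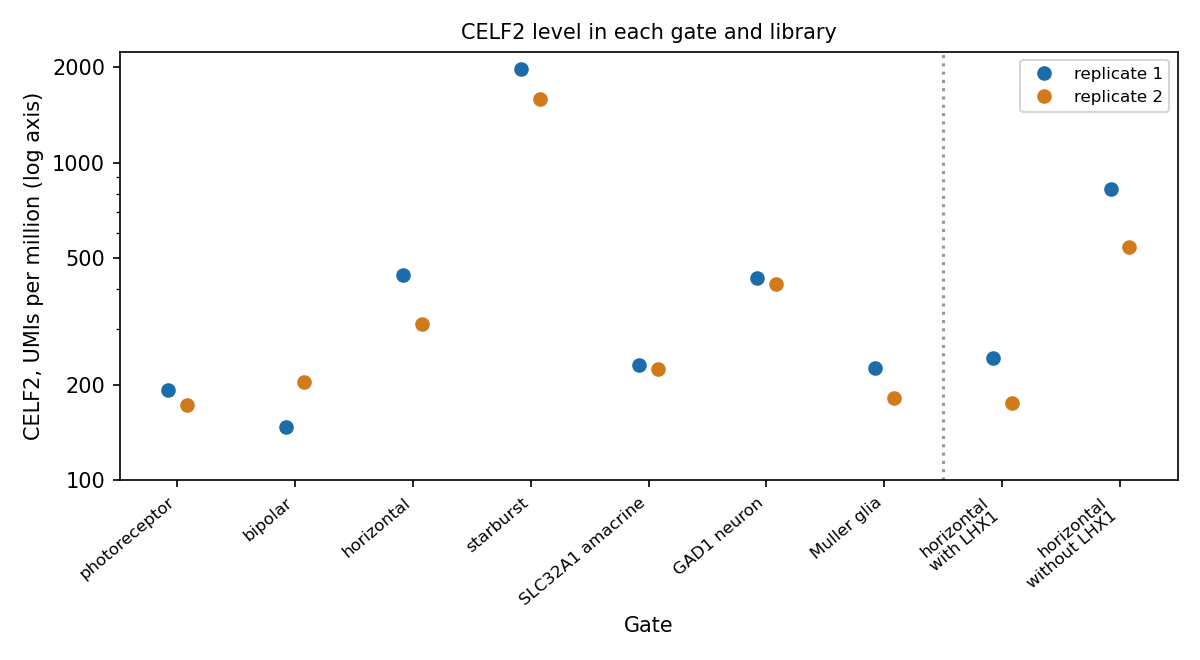
CELF2 level in CPM (log axis) for each gate, with 1 point per library, and at the right for the horizontal gate divided by LHX1. Both starburst points, 1970 and 1592, lie above all others, and the horizontal barcodes without LHX1, at 827 and 542, lie above those with it, at 244 and 176.

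Sums were compared with edgeR's quasi-likelihood test, each gate against the mean of the fitted log2 levels of the other 6, over 15413 genes. A gene was called where its level differed by 2-fold or more with an adjusted p (Benjamini-Hochberg, over all genes) below 0.05. CELF2 was 7.38-fold higher in the starburst gate (log2 fold change 2.88, SE 0.12, adjusted p = 2.15e-10), and the log2 fold changes within each library alone were 3.03 and 2.75. In the starburst gate 2 members were called higher and 0 lower. Of all genes tested 10.7% were called higher there and 5.66% lower. The second was RBM7, an RNA-binding subunit of the nuclear exosome targeting complex, with a log2 fold change of 1.92 (SE 0.52, adjusted p = 0.0125). RBM7 was at 10.5 and 11.3 CPM in the starburst gate, against a range of 5.7 to 12.4 over the bipolar, horizontal, SLC32A1 amacrine, GAD1 neuron and Muller glia gates, which overlapped it. Its call rested on the photoreceptor gate, where it had 0 UMIs. With stricter marker minimums its log2 fold change was 0.59 (adjusted p = 0.0559 by edgeR). With the photoreceptor gate left out of the mean, it was 0.33 (adjusted p = 0.102) and that of CELF2 was 2.76.

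The difference in CELF2 was as large at equal depth, with a log2 fold change of 2.90 in thinned sums, and most starburst barcodes held the gene. After each barcode was thinned to 1000 UMIs, 82.3% of starburst barcodes held a CELF2 UMI (exact 95% interval 80.4% to 84.1%, which covers counting error only), with 84.4% in replicate 1 and 80.3% in replicate 2. The share was 36.2% in the horizontal gate and 31.0% in the GAD1 neuron gate, and 13.6% to 17.8% in the remaining 4. Before thinning it was 99.8% in the starburst gate and 38.1% to 93.6% in the others. Of the thinned starburst barcodes, 51.9% held at least 2 CELF2 UMIs, against 12.2% of horizontal barcodes and 7.71% of GAD1 neuron barcodes. The ratio of variance to mean over thinned starburst barcodes was 1.17, with 1.19 in replicate 1 and 1.10 in replicate 2. These lay above the value of 1 that counting alone gives. The ratio for CELF2 was also 1.32 in the horizontal gate and 1.17 in the bipolar gate, so it was not particular to the starburst gate.

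No gate is known to lack CELF2, so no share that free RNA alone would give could be set beside these, and the part of free RNA in the lower levels was not tested. The ratio of CELF2 to CHAT UMIs was 0.529 and 0.476 in the starburst gate, 1.26 and 2.06 in the SLC32A1 amacrine gate and 2.5 to 28.1 in the other gates. In the photoreceptor gate it rested on 8 and 2 CHAT UMIs in replicates 1 and 2. The ratio is no test of free RNA.

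Among the starburst barcodes, CELF2 was at 1922 and 1527 CPM where ADAMTS12, a marker of part of these cells, had a UMI and at 2028 and 1657 where it had none. The libraries overlapped between the sides, but within each library the side with ADAMTS12 was the lower. This difference was not tested. ADAMTS12 was the one marker of starburst subsets with values here, and the divisions of gates that follow were chosen with values of these data known.

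The horizontal gate held both low and high CELF2. Of its 467 barcodes, those with LHX1, which marks one of the main classes of horizontal cell in jawed vertebrates, held CELF2 at 244 CPM in replicate 1 (88 barcodes) and 176 in replicate 2 (218 barcodes). Those without LHX1, all of which had at least 2 UMIs of SALL3, held it at 827 (60 barcodes) and 542 (101 barcodes). Both libraries of the second set lay above both libraries of the first. With the horizontal gate divided in this way, CELF2 was 3.64-fold higher without LHX1 (log2 fold change 1.86, SE 0.22, adjusted p = 2.33e-05 by edgeR over 14027 genes). It was the 1 member called in that comparison, where 4.69% of genes were called higher and 4.09% lower, and it was called under each of the 8 alternatives run for it. The comparison was added after the values had been seen.

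The divided horizontal sets differed in other ways. GAD1 had UMIs in 98.9% and 99.5% of the barcodes with LHX1 and in 50.0% and 52.5% of those without, and RBPMS, a gene of ganglion cells in jawed vertebrates, in 7.95% and 4.59% against 28.3% and 24.8%. SLC5A7 was found in 4.55% and 4.13% against 10.0% and 3.96%, and CHAT in 20.5% and 13.8% against 25.0% and 12.9%. The median depth without LHX1 was 6529 UMIs in replicate 1 and 26596 in replicate 2, so the libraries sampled that set unequally. Their part in the CELF2 difference was not tested, and it was as large at equal depth, with a log2 fold change of 1.89 after thinning. The other 16 members had log2 fold changes from -0.69 to 0.39 in this comparison, and their median was -0.09 with CELF2 included, against 0.02 for all genes.

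CELF2 also varied within the GAD1 neuron gate, which had the most barcodes with RBPMS (18.0%). Barcodes with TMEM121 held 516 and 493 CPM against 391 and 381 without it. Barcodes with at least 3 UMIs of PRDM13 held 266 and 293 CPM against 496 and 457 without PRDM13. Barcodes with NR4A2 held 320 and 330 CPM against 450 and 430 without it. For each of these the libraries did not overlap between the sides. For RBPMS they did not overlap either, but lay close, at 474 and 449 with it and 419 and 406 without. For PDE11A they overlapped, at 437 and 272 against 434 and 419. These values are given with no test, and with no barcode number or depth for each side.

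In a direct comparison of the 2 gates with the most barcodes, CELF2 was 1.93-fold higher in the GAD1 neuron gate than in the SLC32A1 amacrine gate (log2 fold change 0.95, SE 0.18, adjusted p = 0.0024). This was just under the 2-fold limit, so 0 of 17 members were called by edgeR in that comparison, where 8.44% of all genes were called. At an unadjusted p under 0.05 there were 2 members, CELF2 and RBM28, with no share of all genes at that limit given, and DESeq2 also called 0. Within the SLC32A1 amacrine gate CELF2 was lower with SLC6A5, the glycine transporter of glycinergic neurons, at 205 and 194 CPM, than without it, at 267 and 259. It overlapped between barcodes with and without SLC6A9 and with and without CRHBP, and lay between 194 and 267 CPM in every of the SLC6A5, SLC6A9 and CRHBP divisions. None of these divisions was tested, and the depth of each side is not given.

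CELF2 was the 1 member called lower in any gate. In the photoreceptor gate its log2 fold change against the mean of the others was -1.22 (SE 0.24, adjusted p = 0.0031), where 0 members were called higher and 1 lower, against 5.45% and 4.24% of all genes. That mean includes the starburst gate. Without the starburst gate in it, the log2 fold change was -0.76 (adjusted p = 0.0603), and after thinning it was -1.29 (adjusted p = 0.055), so CELF2 was called in neither. In the same way CELF2 passed an adjusted p of 0.05 below 2-fold in the bipolar (-0.98), SLC32A1 amacrine (-0.75) and Muller glia (-0.65) gates. Without the starburst gate these became -0.51 (adjusted p = 0.0283), -0.28 (adjusted p = 0.171) and -0.17 (adjusted p = 0.386). In the horizontal gate the log2 fold change was 0.37, or 0.21 without replicate 1, and became 0.87 without the starburst gate (adjusted p = 0.000164), and in the GAD1 neuron gate it was 0.36 (adjusted p = 0.0656) and became 0.86 (adjusted p = 0.000215), all by edgeR.

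The SR proteins recruit the spliceosome to exons through repeats of arginine and serine. SRSF3, the smallest of the family, was at 523 and 528 CPM in the SLC32A1 amacrine gate, 473 and 522 in the starburst gate, 439 and 463 in the GAD1 neuron gate and 399 and 481 in the bipolar gate. It was at 312 and 362 in the Muller glia gate, 290 and 277 in the photoreceptor gate and 273 and 254 in the horizontal gate. The last 3 gates lay below the first 4 in both libraries. The log2 fold change was -0.48 (SE 0.11, adjusted p = 0.0029) in the horizontal gate and -0.76 (SE 0.16, adjusted p = 0.0062) in the photoreceptor gate. It was 0.47 in the starburst gate and 0.38 in the SLC32A1 amacrine gate, both past an adjusted p of 0.05. After thinning, the share of barcodes with an SRSF3 UMI was 29.8% in the horizontal gate and 40.9% in the SLC32A1 amacrine gate, but the log2 fold change of the horizontal gate was -0.01 (adjusted p = 1.0) in the fit to thinned sums.

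Outside the photoreceptor gate, SRSF9, which acts on splice-site choice in a similar way, was lowest in Muller glia, with the horizontal gate next. It was at 18.3 and 25.0 CPM in the Muller glia gate and at 31.1 and 33.7 in the horizontal gate. It was at 50.8 and 53.1 in the starburst gate, 56.9 and 52.2 in the GAD1 neuron gate, 57.8 and 62.0 in the bipolar gate and 68.3 and 61.4 in the SLC32A1 amacrine gate. Both Muller glia values lay below every value of these 5 neuronal gates. In the photoreceptor gate it was at 86.9 and 18.5, from 12 UMIs in all, which spans the whole range. The log2 fold change was -0.98 (SE 0.19, adjusted p = 0.000505) in the Muller glia gate, 0.53 (SE 0.19, adjusted p = 0.0447) in the bipolar gate and 0.48 (SE 0.15, adjusted p = 0.0251) in the SLC32A1 amacrine gate. In the horizontal gate it was -0.37 and did not pass (adjusted p = 0.11 by edgeR). After thinning to 1000 UMIs, horizontal barcodes of replicate 1 held a mean of 0.061 SRSF9 UMIs, against 0.057 in both the starburst and GAD1 neuron gates. In replicate 2 the horizontal mean was 0.038, against 0.053 and 0.049. With the photoreceptor gate left out of the mean, SRSF9 in Muller glia passed 2-fold at -1.04, and without replicate 1 it was -0.61.

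HNRNPH1, an hnRNP that binds runs of G near splice sites, was nearly level. Its lowest value over all gates and libraries was 215 CPM, in the horizontal gate, and its highest 294, in the bipolar gate. Its log2 fold change passed an adjusted p of 0.05 in no gate.

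**Figure D2:**
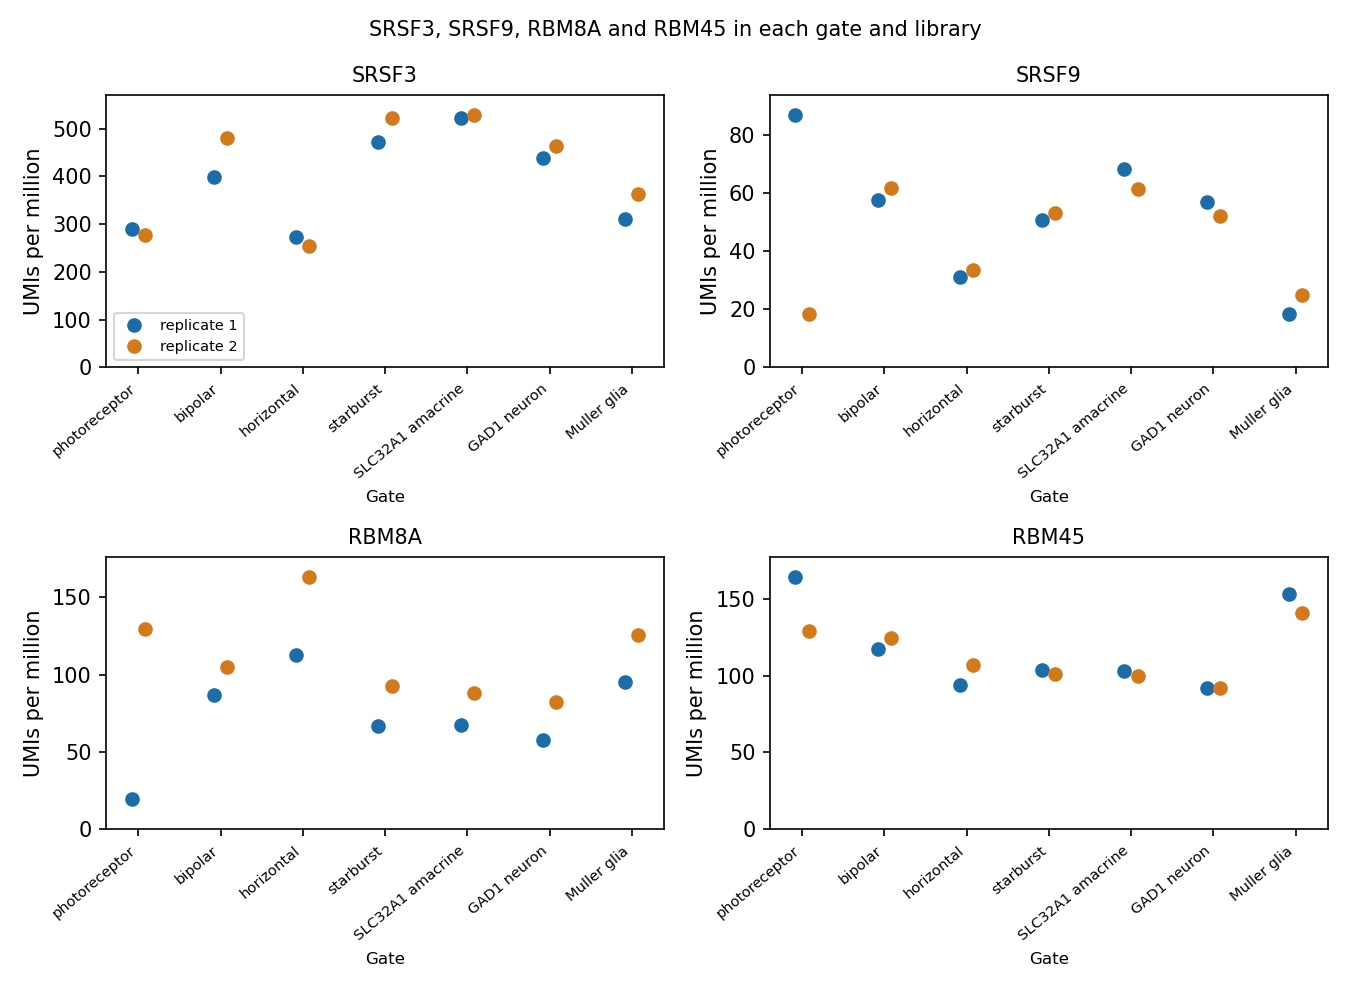
Levels of SRSF3, SRSF9, RBM8A and RBM45 in CPM (linear axes from 0) for each gate, with 1 point per library. SRSF9 is lowest in Muller glia except for 1 photoreceptor library, RBM8A is higher in replicate 2 in all 7 gates, and RBM45 is higher in Muller glia than in the 5 neuronal gates other than the photoreceptor gate.

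RBM8A (Y14), a core protein of the exon junction complex that marks spliced junctions, was at 113 and 163 CPM in the horizontal gate and 95.5 and 126 in the Muller glia gate. It was at 57.5 and 82.2 in the GAD1 neuron gate, the lowest of the gates with more than 100 barcodes. The log2 fold changes were 0.86 (SE 0.14, adjusted p = 0.000145) in the horizontal gate, 0.50 (SE 0.14, adjusted p = 0.0085) in the Muller glia gate and -0.52 (SE 0.15, adjusted p = 0.0127) in the GAD1 neuron gate. Over every alternative, that of the horizontal gate was 0.70 to 1.04. In thinned barcodes of replicate 1, the horizontal mean was 0.068 RBM8A UMIs. Starburst, bipolar, Muller glia and GAD1 neuron means there were 0.075, 0.076, 0.102 and 0.054. In replicate 2 the horizontal mean was 0.166, against 0.147 in Muller glia. RBM8A was higher in replicate 2 in all 7 gates, from 86.7 against 105 in the bipolar gate to 19.3 against 129 in the photoreceptor gate. In replicate 1 of the photoreceptor gate, 19.3 CPM is the level that 2 UMIs give. Without replicate 2 the log2 fold change of RBM8A was -0.23 in the GAD1 neuron gate and 0.83 in the Muller glia gate. The mean behind both includes that low photoreceptor value. In both libraries the horizontal and Muller glia gates lay above the GAD1 neuron gate. Over all barcodes it was at 66.7 CPM in replicate 1 and 98.4 in replicate 2.

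Of the other 5 members that act in the spliceosome, RBMX2, a homologue of a yeast splicing-complex subunit, passed an adjusted p of 0.05 in 1 gate. It was at 41.4 and 39.7 CPM in the Muller glia gate against 27.9 to 37.9 in the other gates of more than 100 barcodes (log2 fold change 0.49, SE 0.12, adjusted p = 0.0032). RBM17 (SPF45), RBM22, RBM42 and RBM48 passed it in none. RBM48, a factor of the minor spliceosome, had 2 UMIs in the photoreceptor gate, 51 in the Muller glia gate and 15 in the bipolar gate, and was at 2.2 and 5.0 CPM in Muller glia and 3.1 and 5.2 in the bipolar gate, which overlapped, against 7.1 to 13.1 in the horizontal, starburst, SLC32A1 amacrine and GAD1 neuron gates.

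RBM45, an RNA-binding protein first described in the developing rat brain, was at 153 and 141 CPM in the Muller glia gate. It was at 164 and 129 in the photoreceptor gate, from 38 UMIs, and at 118 and 125 in the bipolar gate. The horizontal, starburst, SLC32A1 amacrine and GAD1 neuron gates lay between 92.2 and 107. The log2 fold change was 0.60 (SE 0.10, adjusted p = 0.000191) in the Muller glia gate and -0.43 (SE 0.11, adjusted p = 0.0067) in the GAD1 neuron gate. In the SLC32A1 amacrine gate it was -0.33 (adjusted p = 0.0297) and turned to 0.01 after thinning. The share of thinned barcodes with an RBM45 UMI was 15.3% in Muller glia, against 8.57% to 12.8% in the other gates.

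**Figure D3:**
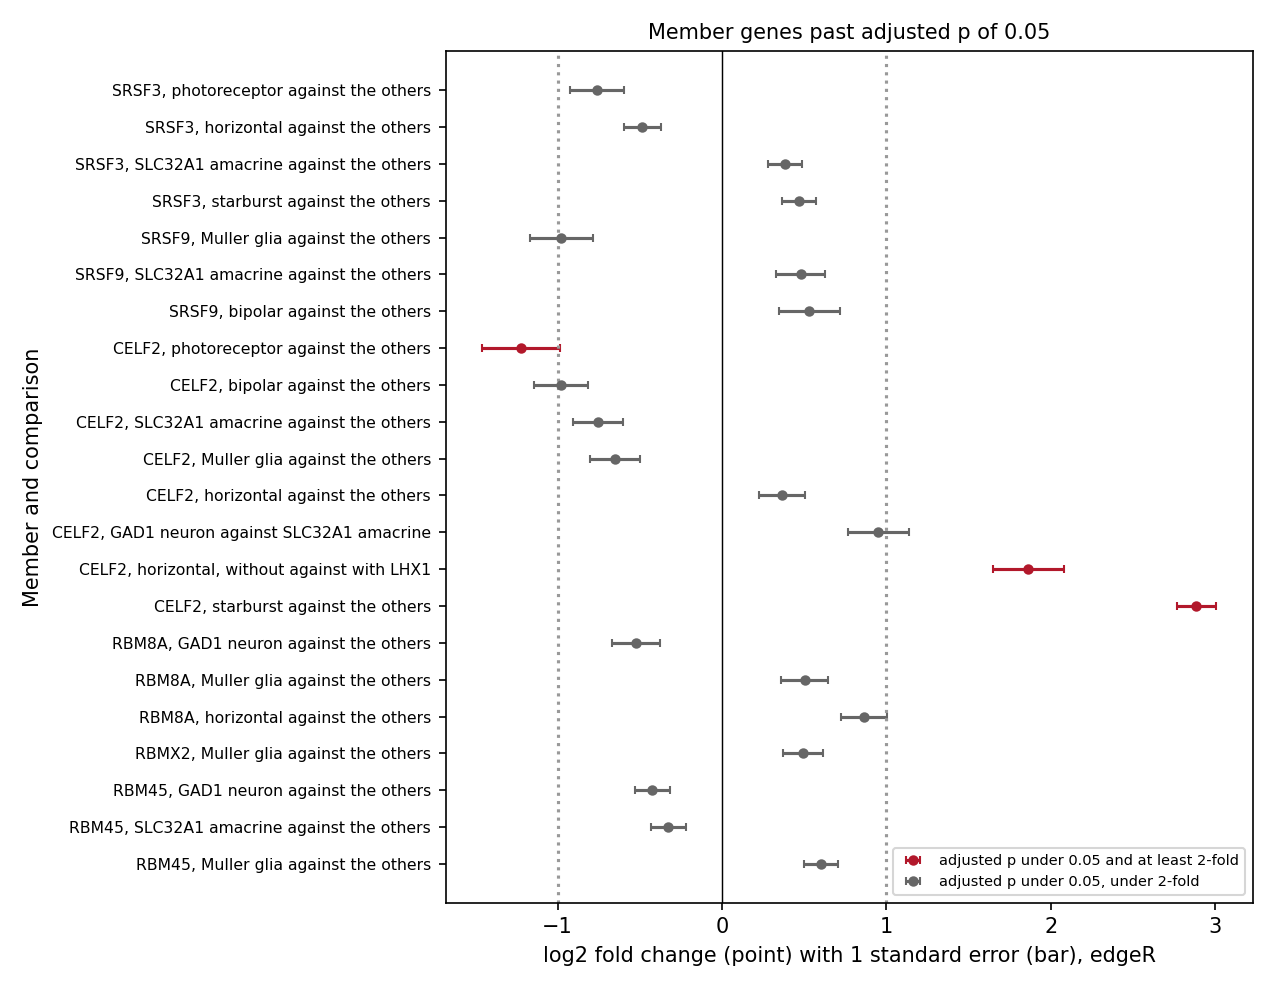
Log2 fold change (points) with 1 standard error (bars) for each member and comparison past an adjusted p of 0.05 in edgeR, apart from RBM7, with dotted lines at 2-fold. Of the genes shown only CELF2, in red, passes 2-fold: at 2.88 in the starburst gate, at 1.86 between the divided horizontal barcodes and at -1.22 in the photoreceptor gate. RBM7, left out, was also called in the starburst gate, at 1.92.

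RBM7 and RBM26, which act in nuclear RNA decay, and RBM19, RBM28, RBM34 and PUM3, which act in the nucleolus or in the making of ribosomes, were detected at low levels. Their highest value was 37.0 CPM, for RBM26 in replicate 2 of the photoreceptor gate. PUM3, a distant relative of the Pumilio translational repressors, was at 5.2 to 16.5 CPM in the gates other than the photoreceptor gate. PUM3 and RBM7 had 0 UMIs in the photoreceptor gate, where 3 counts, the limit that a count of 0 allows, correspond to 11.3 CPM over both libraries. Their levels over the other gates had geometric means of 7.03 and 9.04 CPM, below that limit, so lower levels in photoreceptors were not detectable at this depth. Apart from RBM7 in the starburst gate, none of these 6 genes passed an adjusted p of 0.05 in any comparison.

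Over all members, 2 of 17 (CELF2 and RBM7) were called in at least 1 of the 7 gate comparisons, against 59.9% of all genes tested. By edgeR, 0 of 17 were called in the bipolar gate, where 18.2% of all genes were called in either direction, 0 in the horizontal gate (25.4%), 0 in the SLC32A1 amacrine gate (15.5%), 0 in the GAD1 neuron gate (16.5%) and 0 in the Muller glia gate (33.8%). At an unadjusted p under 0.05 there were 6, 3, 7, 5 and 5 members in these gates, and DESeq2 called 0 in each of the 5. The share of all genes at that unadjusted p is not given. The percentages here are for the stricter call, so they are no background for the unadjusted counts. The starburst and photoreceptor gates had 16.3% and 9.69% of all genes called. The members' median log2 fold change lay near that of all genes in each gate. It was 0.01 against 0.07 in Muller glia, -0.03 against 0.10 in the horizontal gate, 0.25 against 0.13 in the SLC32A1 amacrine gate and 0.13 against 0.10 in the starburst gate. In the photoreceptor gate it was -0.24 against -0.39, or -0.20 with RBM7 and PUM3 set to the limit of 3 counts.

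**Figure D4:**
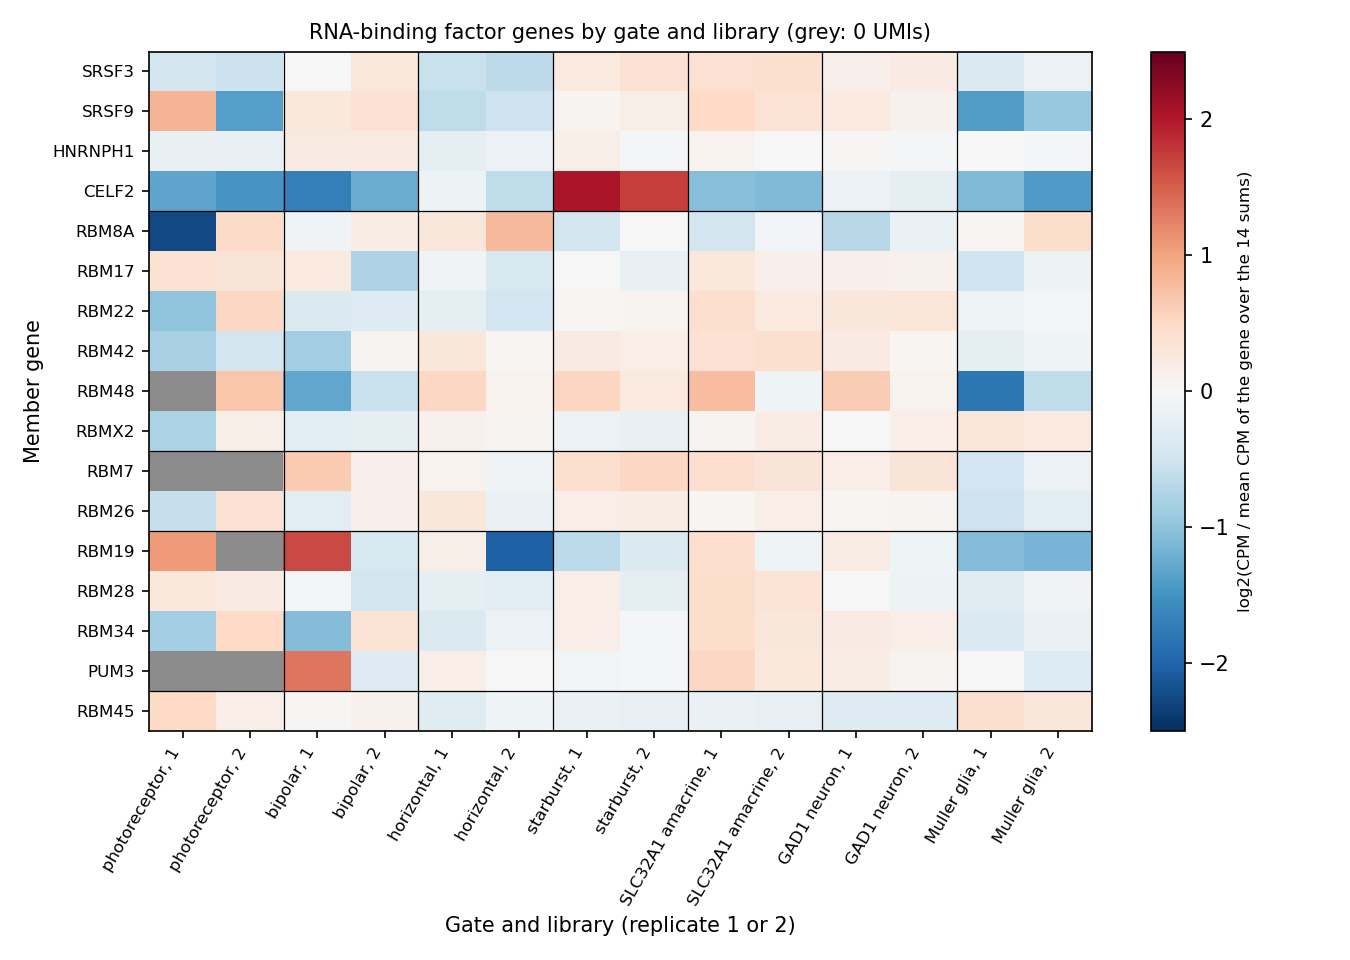
Log2 of each member's CPM over its mean across the 14 sums of gate and library, with members in rows ordered by role and sums in columns (grey, 0 UMIs). CELF2 in the starburst gate, at 1970 and 1592 CPM, lies furthest above its row. RBM8A in replicate 1 of the photoreceptor gate (19.3 CPM) and RBM19 in replicate 2 of the horizontal gate (1.1 CPM) lie furthest below theirs, apart from sums with 0 UMIs. That RBM8A value is the level of 2 UMIs. Most other rows stay near 0 outside the photoreceptor and bipolar gates, which hold the fewest UMIs.

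Other genes of RNA processing were counted by name. The core spliceosome list held 42 genes, all tested. It took in every symbol that began with LSM, among them LSM1, LSM10 and LSM11, with no check that each acts in the spliceosome. In the Muller glia gate 8 of them were called higher (SNRPE, SNRPC, SNRPG, SNRPB, SF3B4, SF3B6, LSM7 and LSM10) and 0 lower, against 20% and 13.8% of all genes. The count called higher lay near the background. SF3B6, a protein of the U2 particle that contacts the branch site, had a log2 fold change of 1.62 (SE 0.11). The list's median was 0.29 against 0.07 for all genes. In the horizontal gate 2 were called higher, LSM5 and LSM10, against 14.4% of all genes, and the list's median was 0.31 against 0.10. No gene of this list was called by edgeR in the photoreceptor, bipolar, starburst, SLC32A1 amacrine or GAD1 neuron gates. Of all genes, 9.69%, 18.2%, 16.3%, 15.5% and 16.5% were called there in either direction, in that order.

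Of the splicing cofactors, 3 were in the tables, PNN, SRRM2 and ESRP1. ESRP1, an epithelial splicing regulator in mammals, was called higher in the horizontal gate (log2 fold change 2.97, SE 0.77), where 14.4% of all genes were. It had UMIs in only 299 barcodes, and its level in each gate is not given. Whether gates with few or no UMIs of ESRP1 raised this fold was not tested. Of 17 genes of mRNA transport, translation and decay, 16 were tested, and 3 were called higher in the Muller glia gate, where 20% of all genes were, so the count lay near the background. These were UPF1, SMG6 and SMG8, factors of nonsense-mediated decay, with log2 fold changes of 1.20, 1.09 and 1.55. The median of that list in Muller glia was -0.18. SMG1, the kinase of UPF1, was called lower in the horizontal barcodes without LHX1 (log2 fold change -1.44, SE 0.23), where 4.09% of all genes were.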

How the data were processed

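The authors aligned the reads of 2 droplet libraries of adult retina to a lamprey reference extended with retinal transcripts and deposited, per library, UMI counts per gene and called cell barcode. Per the file headers Cell Ranger 7.0.1 was used, while the submitters' processing notes name 6.0.1. The labels describe an earlier kit version than the methods, and a sort of cells that the methods do not mention. The values the authors deposited are raw whole-number counts.

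Barcodes needed at least 500 UMIs and 330 to 8950 genes, as in the study's methods. A barcode that met more than 1 gate (244) entered none, no doublet caller was run, and 15741 barcodes met no gate. Marker minimums were set from the markers' own UMI distributions. Counts were summed per library and gate (at least 10 barcodes), filtered (filterByExpr), normalized by TMM and fitted on all genes with edgeR 4.0.16 in R 4.3.3 (glmQLFit, glmQLFTest) with gate and library as terms. A gene at 0 in a gate draws down the mean of fitted levels and raises the fold of the gates compared with it. The standard error is the log2 fold change divided by the square root of F. Alternatives used RLE, DESeq2 1.42.0, no filter, no block, stricter markers, thinning to 1000 UMIs, at least 400 genes, and means without the photoreceptor or starburst gate. Summation and plots used Python 3.11.15.

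Every sum of a replicate number came from the same library, so the numbers pair the sums, and library was a block. Differences between libraries correlated between gates with r from 0.062 to 0.755 over 21 pairs of gates. Exact (Clopper-Pearson) 95% intervals cover counting error only. Genes were matched by the symbols in the files, and no coordinates are given. Of the members' symbols, 13 of 17 were also in a RefSeq table of another assembly. Named with values were members called in a comparison (at most 4 each way) and every member of the CELF and PUM families, with other members by counts and ranges. SRSF3, SRSF9, HNRNPH1, RBM8A, RBM45, RBMX2, RBM48 and genes named from the other lists were singled out after their values were seen. The members, markers and lists were chosen with earlier results of these data known. The fits were tested on simulated data.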

Additional observations from a re-analysis of the deposited data

How the results depend on the processing

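CELF2 in the starburst gate and between the divided horizontal barcodes kept its direction under every alternative run and its call under every one with a test, with log2 fold changes of 2.75 to 3.04 and 1.77 to 1.94. The counts of called members moved under some. The genes tested numbered 15183 with stricter markers, 9980 after thinning and 21194 with no filter. The share of all genes called under each alternative is not given, so the counts that follow have no background beside them. With each marker minimum raised by 1 UMI the count was 3 in the photoreceptor gate, 1 in the horizontal gate, 2 in the SLC32A1 amacrine gate and 1 in the Muller glia gate, with RBM28 or RBM42 added in each. In the starburst gate the count stayed at 2, but RBM42 took the place of RBM7, and the 3 members called in at least 1 gate were CELF2, RBM28 and RBM42. After thinning to 1000 UMIs it was 2 in the bipolar gate (RBM28 and CELF2), 1 in the starburst gate (CELF2), 1 in Muller glia (RBMX2), 1 between the GAD1 neuron and SLC32A1 amacrine gates (CELF2), and 4 members in at least 1 gate. In the 58 thinned photoreceptor barcodes RBM28 had 0 UMIs, which draws down the mean that the bipolar gate was set against. The part of this in the RBM28 call was not tested. The 1 call of the photoreceptor gate after thinning was SRSF3 (log2 fold change -1.72) in place of CELF2. With the photoreceptor gate left out of the mean it was 1 in the bipolar gate (CELF2), 1 in the starburst gate (CELF2) and 1 in Muller glia (SRSF9). With the starburst gate left out, an alternative chosen after seeing the data, it was 0 in the photoreceptor gate and 1 in the SLC32A1 amacrine gate (RBM7). With no filter on low counts it was 1 in the bipolar gate (CELF2). DESeq2 called 1 in the starburst gate and 1 in at least 1 gate, CELF2 in both. The causes were not tested, beyond the 0 UMIs of RBM7 in the photoreceptor gate.

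With no replicate block the counts of called members did not change, 2 of 17 in at least 1 gate, and 6 smaller differences lost an adjusted p under 0.05, among them RBM8A in Muller glia (log2 fold change 0.50, adjusted p = 0.162). RBM45 in the SLC32A1 amacrine gate reversed to 0.011 after thinning. Over 24 log2 fold changes, 230 values from alternatives other than leaving out a library comprised 200 on the same side of the threshold, 26 weaker, 3 stronger and this 1 reversed. With a library left out, 48 values had no test. None changed sign, and 7 moved by more than the spread between the libraries. That spread was the SD of the same 2 single-library values, so a wider gap between the libraries made this limit looser. The count is therefore no measure of stability. By a separate measure, some of the 48 differed from the value with both libraries by over 1.5 times. These were RBM8A without replicate 2 in the GAD1 neuron (-0.23) and Muller glia (0.83) gates, SRSF9 in Muller glia without replicate 1 (-0.61) and CELF2 in the horizontal gate without replicate 1 (0.21). Only the RBM8A values of these were also among the 7. Counts could not be fitted with 1 library. The photoreceptor gate, with 265815 UMIs, limits every value that rests on it.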

Other observations

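The 15741 barcodes in no gate had a median of 2413 UMIs, and their members' levels lay near those of the gated barcodes except for CELF2. CELF2 was at 356 and 311 CPM in replicates 1 and 2 of the barcodes in no gate, against 612 and 478 in the gated barcodes. SRSF3 was at 463 and 471 against 452 and 455, and HNRNPH1 at 231 and 224 against 262 and 248.

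Members differed between the libraries in unequal ways. RBM8A was at 67.8 CPM in replicate 1 and 98.7 in replicate 2 of the barcodes in no gate, and at 65.7 and 97.2 in the gated barcodes. RBM48 was at 11.4 and 7.6 CPM in no gate and at 11.5 and 7.6 in the gated barcodes. RBM45 was at 101 CPM in replicate 1 and 103 in replicate 2 over all barcodes. With 1 library per replicate these differences have no test.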
